A study of Rattus norvegicus with 6 samples.

Results

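The 10 inflammatory cytokine genes Tnf, Il1a, Il1b, Il1rn, Il6, Il10, Il18, Il33, Tgfb1 and Csf1 were examined in rat liver. Their probes were found by matching the RefSeq accession of each spot to the current rat gene symbols, which gave 17 of the 61657 non-control probes of the array. All 10 genes had a probe, 7 of them had 2, and 9 genes were measured well enough to be tested among 28995 features. Liver RNA came from 3 male Sprague-Dawley rats given bromodichloromethane (BDCM), a trihalomethane formed when water is chlorinated, at 200 mg/kg/day, and from 3 given corn oil. All 6 rats were purchased at 5 weeks of age and kept on a basal diet and tap water. The labels disagree on the exposure: the design text speaks of day 28 and the treatment protocol of 9 weeks of dosing, and its length is therefore not settled. Each animal was hybridised to its own 1-colour Agilent array.

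Tumour necrosis factor and interleukin 1 are early signals of inflammation, released in liver mainly by Kupffer cells and recruited monocytes, and they act through the transcription factor NF-κB. Interleukin 6, one of the genes they induce, makes hepatocytes produce acute phase proteins through STAT3. The antagonist encoded by Il1rn and the cytokine interleukin 10 restrain the response. Interleukin 18 and interleukin 33 belong to the interleukin 1 family, transforming growth factor beta 1 drives matrix production, and Csf1 maintains macrophages.

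The promoter windows of Tnf and Il1b, the members that passed the test below, and of Il6, which stayed at background, are shown because these genes are classical NF-κB targets. Each runs from 250 bases before to 50 bases after the RefSeq transcript start on rat assembly GRCr8, read 5′ to 3′ on the gene's strand, with matches to the κB pattern (GGG, any 5 bases, then CC) on either strand in capitals.
Tnf, chr20:3626435-3626734, + strand: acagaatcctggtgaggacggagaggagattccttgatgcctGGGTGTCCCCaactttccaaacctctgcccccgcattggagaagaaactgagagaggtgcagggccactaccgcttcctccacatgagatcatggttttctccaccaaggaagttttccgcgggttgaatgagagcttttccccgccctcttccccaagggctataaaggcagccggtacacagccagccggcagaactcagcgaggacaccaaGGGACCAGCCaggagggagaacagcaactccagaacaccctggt
Il1b, chr3:137036532-137036831, - strand: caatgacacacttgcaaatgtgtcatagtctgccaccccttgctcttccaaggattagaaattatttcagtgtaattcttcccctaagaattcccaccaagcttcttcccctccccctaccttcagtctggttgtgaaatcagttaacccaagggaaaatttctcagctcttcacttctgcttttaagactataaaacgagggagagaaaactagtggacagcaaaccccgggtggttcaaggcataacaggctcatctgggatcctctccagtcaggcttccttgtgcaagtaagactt
Il6, chr4:5894526-5894825, - strand: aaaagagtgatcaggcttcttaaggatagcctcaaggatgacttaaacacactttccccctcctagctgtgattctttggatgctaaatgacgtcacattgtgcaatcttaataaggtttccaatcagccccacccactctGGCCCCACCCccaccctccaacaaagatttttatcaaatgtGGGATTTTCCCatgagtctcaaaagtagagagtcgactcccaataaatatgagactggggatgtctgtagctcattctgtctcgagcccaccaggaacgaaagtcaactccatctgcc
The Tnf window held 2 κB matches, 1 of them after the transcript start, and a TATAAA that begins 46 bases before the start. No κB match lay in the Il1b window, which had a TATAAA 60 bases before the start. In the Il6 window there were 3 matches, 2 of which, GGGATTTTCC and GGATTTTCCC, overlap. Windows were given for 8 of the 10 members, with 2 for Il33, and 5 of these 8 genes held a κB match. The pattern is common, in 47.3% of all 33469 windows of that length. AP-1 (TGANTCA) was found in the windows of Il1a and Il18 and in 7.33% of all windows. The STAT pattern TTCNNNGAA (8.87% of all windows) and the antioxidant response element core TGACNNNGC (12.1%) were in none of the members' windows. TATAAA, in 14.2% of all windows, was found for Tnf, Il1a, Il1b, Il1rn and 1 of the Il33 windows. These are matches of letters and were not tested as binding sites.

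The share of probes well above background ran from 61.3% to 66.9% over the 6 arrays, and their 75th percentiles ran from 670 to 825 fluorescence units. All 8 hepatocyte markers were well above background on all 6 arrays. BDCM replicate 1 shared a slide with the 3 corn oil arrays (slide 1), whereas BDCM replicates 2 and 3 lay on a slide that was scanned separately (slide 2). In any fit without BDCM replicate 1 treatment and slide therefore cannot be told apart. Levels are given as the ratio of a probe's signal to the 75th percentile of its array. Fold changes (log2, BDCM minus corn oil) are therefore relative to the other transcripts, and scaling by spiked-in control transcripts moved the median of all features upwards to 0.48. The arrays were too few to settle small differences.

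In livers of BDCM-treated rats the transcripts of the inflammatory cytokines Tnf and Il1b were 3.13-fold and 2.09-fold higher than in corn oil livers, and no member passed as lower. Of 9 tested members these 2 rose and 7 did not pass, by limma with an adjusted p of 0.05 as the threshold. Over all features 9.36% passed, 5.96% as higher and 3.41% as lower. An unadjusted p under 0.05 was found for 4 of the 9 members and for 27.5% of all features. The log2 fold change was above 0 for 8 of the 9, as for 50.2% of all features, and its median was 0.50, against 0.0014 over all features. On slide 1 alone, where BDCM replicate 1 is the only treated animal, and with slide as a block, 7 of the 9 were above 0 and the median was 0.12, and with normexp background correction it was 0.28. The groups did not overlap for 3 members, Tnf, Il1b and Tgfb1, all higher in BDCM livers, and 18.4% of all features were separated in that direction (16.0% in the other, 34.4% in all). In whole liver, more cells of a type and more RNA per cell cannot be told apart.

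**Figure D1:**
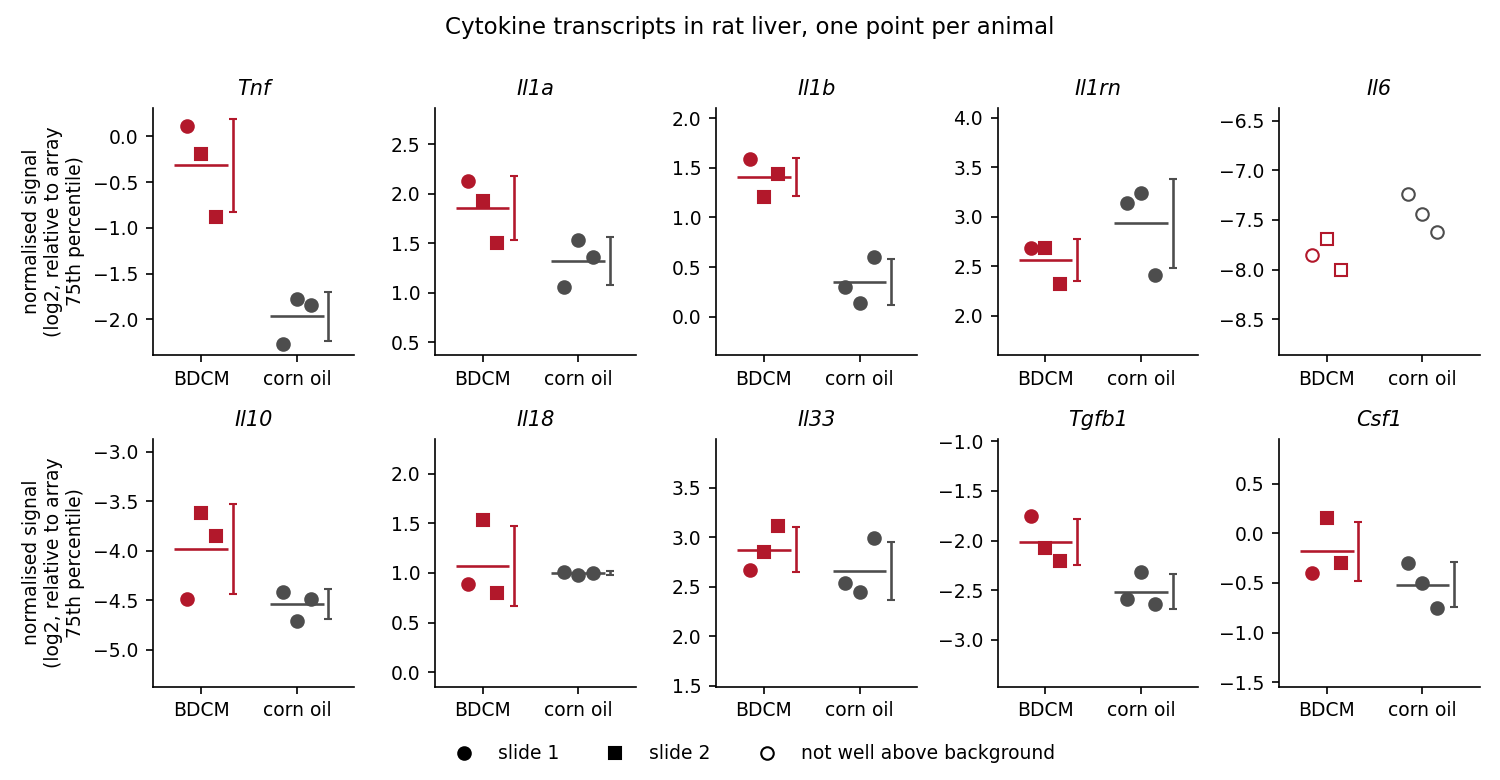
Signal of each cytokine in each animal on the log2 scale, relative to the 75th percentile of its array, with BDCM animals in red and corn oil animals in grey (bars, mean; whiskers, SD, n = 3 each; open symbols, not well above background; each panel has its own axis range). The 3 BDCM points lie above the 3 corn oil points for Tnf, Il1b and Tgfb1, the groups overlap for the other 6 measured genes, and all 6 points of Il6 are open.

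Tnf encodes the trimeric cytokine that is shed from macrophage membranes. Its level was 1.08, 0.877 and 0.543 in BDCM replicates 1, 2 and 3, against 0.207, 0.291 and 0.279 in corn oil replicates 1, 2 and 3. Every BDCM animal was above every corn oil animal, and replicate 3 was the lowest of the treated animals. The mean was 0.834 ± 0.272 in BDCM livers and 0.259 ± 0.0453 in corn oil livers (SD, n = 3 each), with a log2 fold change of 1.65 (SE 0.28, limma adjusted p = 0.023). On slide 1 alone, where 1 BDCM animal stands against 3 corn oil animals, the log2 fold change was 2.08 (adjusted p = 0.086), and with slide as a block the adjusted p was 0.067. Both fits, here and for the other genes, take the difference from BDCM replicate 1 alone and assume that this lone animal varies like the others. The call held without BDCM replicate 3 (adjusted p = 0.023) and ended without any one of the other 5 animals (0.055 to 0.089). A second Tnf probe was dim. Its processed signal was 21.5, 15.5 and 6.86 fluorescence units in BDCM replicates 1, 2 and 3 and 5.15, 4.87 and 4.33 in corn oil replicates 1, 2 and 3. It was well above background only in BDCM replicate 1, so it was not tested and gives no fold.

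Il1b encodes interleukin 1 beta, which is made as a precursor and cut by caspase 1. Its level was 3.01, 2.31 and 2.71 in BDCM replicates 1, 2 and 3, against 1.23, 1.10 and 1.52 in corn oil replicates 1, 2 and 3. Every BDCM animal was above every corn oil animal. The mean was 2.68 ± 0.351 in BDCM livers and 1.28 ± 0.214 in corn oil livers (SD, n = 3 each), with a log2 fold change of 1.06 (SE 0.16, limma adjusted p = 0.019). A second probe gave 0.96 (SE 0.17, adjusted p = 0.028 over all probes, of which 8.52% passed), again with no overlap. On slide 1 alone the log2 fold change was 1.24 (adjusted p = 0.14), and with slide as a block the adjusted p was 0.073. Of the fits that left out 1 animal, only that without corn oil replicate 3 kept the call (adjusted p = 0.031, against 0.051 to 0.065 in the other 5). Without the filter on dim probes, which raises the number of features to 45862 (1.33% past the threshold), the adjusted p was 0.061 for Tnf and 0.054 for Il1b.

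Il1a encodes interleukin 1 alpha, which binds the same receptor and is active without caspase 1. Its level was 4.38, 3.80 and 2.84 in BDCM replicates 1, 2 and 3 and 2.09, 2.90 and 2.57 in corn oil replicates 1, 2 and 3. The lowest BDCM animal lay just below the highest corn oil animal, and the log2 fold change of 0.53 did not pass (SE 0.20, 95% interval 0.05 to 1.02, limma adjusted p = 0.15). The other probe gave 0.49, and slide 1 alone gave 0.81.

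Il1rn encodes the antagonist that occupies the interleukin 1 receptor without signalling, and it did not follow Il1b. Levels were 6.43, 6.41 and 4.99 in BDCM replicates 1, 2 and 3 and 8.82, 9.47 and 5.34 in corn oil replicates 1, 2 and 3. The groups overlapped through corn oil replicate 3, which was far below the other corn oil animals. The log2 fold change was -0.37 (SE 0.24, 95% interval -0.96 to 0.21, limma adjusted p = 0.37), and -0.63 without corn oil replicate 3 (adjusted p = 0.082). The second probe gave -0.36. With spike-in scaling the sign turned, at 0.11, so no direction is given.

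Il6 was not well above background on any of the 6 arrays. Its single probe had processed signals of 3.58, 3.99 and 2.92 fluorescence units in BDCM replicates 1, 2 and 3 and 4.45, 4.20 and 3.84 in corn oil replicates 1, 2 and 3. No difference was therefore measurable, and no fold is given.

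Il10 encodes an anti-inflammatory cytokine of macrophages and T cells, and its signal was faint. Levels were 0.0445, 0.0816 and 0.0692 in BDCM replicates 1, 2 and 3 and 0.0468, 0.0382 and 0.0447 in corn oil replicates 1, 2 and 3. BDCM replicate 1, the treated animal on slide 1, lay among the corn oil animals, while those on slide 2 lay above them. The log2 fold change was 0.55 (SE 0.23, 95% interval -0.01 to 1.11, limma adjusted p = 0.19), and on slide 1 alone it was 0.05. Without BDCM replicate 1 it was 0.80 and passed (adjusted p = 0.0496), but in that fit treatment and slide cannot be told apart. With normexp background correction it was 0.08.

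Il18 encodes a caspase 1 substrate that stimulates interferon gamma production. Its level in BDCM livers was 1.85, 2.90 and 1.74 in replicates 1, 2 and 3, against 2.02, 1.97 and 2.01 in corn oil replicates 1, 2 and 3. BDCM replicate 2 stood above all other animals and the other treated animals below all corn oil animals. The log2 fold change was 0.07 (SE 0.20, 95% interval -0.41 to 0.56, limma adjusted p = 0.85). Its sign turned without BDCM replicate 2 (-0.16) and within slide 1 (-0.11), and no direction is given.

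Il33 encodes a nuclear alarmin released from damaged cells. Levels were 6.34, 7.20 and 8.66 in BDCM replicates 1, 2 and 3 and 5.83, 5.46 and 7.96 in corn oil replicates 1, 2 and 3. The groups overlapped, with a log2 fold change of 0.21 (SE 0.19, 95% interval -0.24 to 0.66, limma adjusted p = 0.50), and the other probe gave 0.33. On slide 1 alone it was 0.0033.

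Tgfb1 encodes transforming growth factor beta 1, secreted in a latent form. Its level was 0.296, 0.238 and 0.217 in BDCM replicates 1, 2 and 3 and 0.166, 0.201 and 0.160 in corn oil replicates 1, 2 and 3. The groups did not overlap, but the gap was narrow. The log2 fold change of 0.50 did not pass (SE 0.15, 95% interval 0.13 to 0.88, limma adjusted p = 0.096), and it was 0.76 on slide 1 alone.

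Csf1 encodes macrophage colony-stimulating factor. Its level was 0.758, 1.12 and 0.811 in BDCM replicates 1, 2 and 3 and 0.814, 0.707 and 0.594 in corn oil replicates 1, 2 and 3, with overlap. The log2 fold change was 0.33 (SE 0.19, 95% interval -0.12 to 0.79, limma adjusted p = 0.31). It was 0.12 on slide 1 alone and 0.16 without BDCM replicate 2. The other Csf1 probe gave 0.38 without overlap and did not pass either (adjusted p = 0.15 over all probes). The treated animals did not rank alike for all members. Replicate 1 had the highest level of Tnf, Il1a, Il1b, Tgfb1 and, by a small margin, Il1rn, replicate 2 of Il10, Il18 and Csf1, and replicate 3 of Il33.

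**Figure D2:**
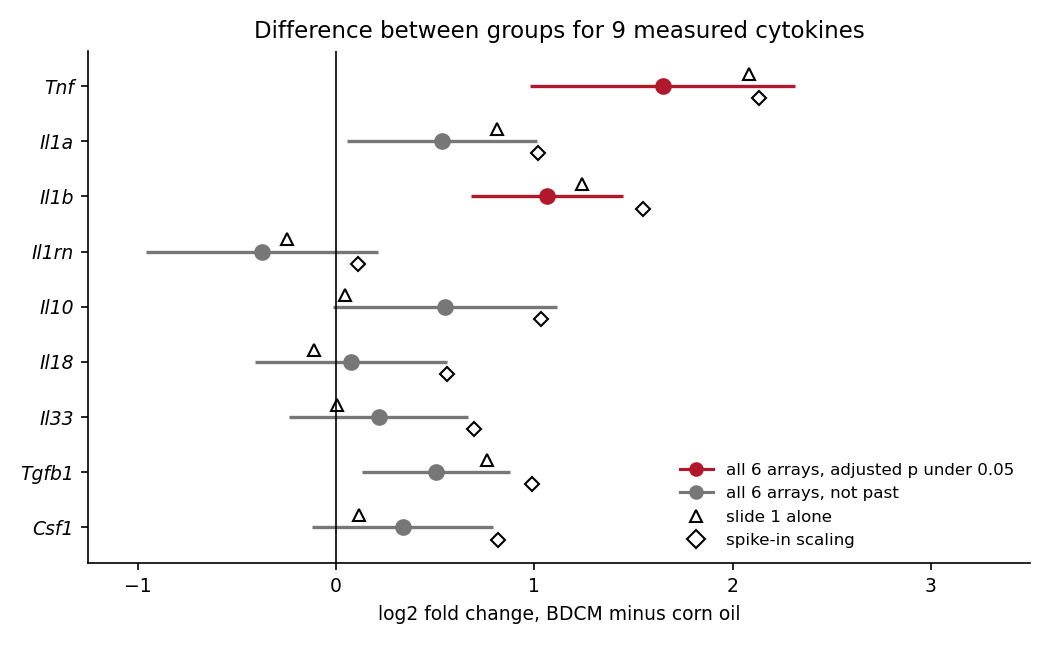
Log2 fold change (BDCM minus corn oil, x axis) of the 9 measured cytokines, with 95% intervals from the limma fit of 3 BDCM and 3 corn oil arrays (red, past the threshold; grey, not past), the value on slide 1 alone (triangles) and with spike-in scaling (diamonds). Tnf at 1.65 and Il1b at 1.06 are past the threshold, the slide 1 value is larger for both, and Il1rn changes sign with spike-in scaling.

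Spike-in scaling raised every member, so that all 9 had a log2 fold change above 0 and 7 passed, all except Il1rn and Il18. With that scaling 44.8% of all features passed. The rise of Tnf and Il1b kept its direction under every scaling that was tried. Quantile normalization, median centring and spike-in scaling moved the median of all features upwards, to 0.01, 0.06 and 0.48. A rise could therefore hardly turn, and these scalings are no support for its direction. With slide as a fixed block, on slide 1 alone and with the replicate number as a block none of the 9 members passed limma's threshold, and 4 had an unadjusted p under 0.05 in each of these fits. In them 1.21%, 0.414% and 1.22% of all features passed, and 20.9%, 18.0% and 25.9% had an unadjusted p under 0.05. Without BDCM replicate 1, 2 or 3 the share of features that passed was 4.04%, 1.16% or 2.58%, and without corn oil replicate 1, 2 or 3 it was 4.25%, 1.59% or 3.66%.

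Among kept genes with a symbol, those whose pattern over the 6 arrays was most like that of Tnf were Neurl3, a ubiquitin ligase, Gpnmb, a glycoprotein of lipid-laden macrophages, and Cd276, an immune checkpoint protein. Their values, each set to its corn oil mean, differed from those of Tnf by a root mean square of 0.11, 0.12 and 0.23 on the log2 scale. Those nearest to Il1b were Fuom, a fucose mutarotase, Pdlim4, a cytoskeletal protein, and Tyro3, a receptor kinase, at 0.11, 0.14 and 0.15. These 6 genes were picked from 11396 for likeness to a member that differed between groups, so their own differences are no finding.

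Of 16 listed receptor genes of these cytokines 13 were tested. Among these 1 rose and 1 fell (5.96% and 3.41% of all features), and 11 did not pass. Their median log2 fold change was 0.03. The groups were separated upwards for 3 and downwards for 4, against 18.4% and 16.0% of all features. Il1r2, the decoy receptor that captures interleukin 1, had a level of 0.0605, 0.0564 and 0.0545 in BDCM replicates 1, 2 and 3 and 0.0377, 0.0294 and 0.0406 in corn oil replicates 1, 2 and 3. It rose by 0.68 (SE 0.14, adjusted p = 0.037), but normexp lowered the value to 0.13. It was well above background in 2 of 3 corn oil animals, and so was kept for the test through the BDCM group alone. Its call and its separation are therefore no support for a rise. Among the 11 receptor genes well above background on all 6 arrays, none rose, 1 fell and the median was -0.05. Il6r, the interleukin 6 receptor of hepatocytes, fell by 0.76 (SE 0.15, adjusted p = 0.032) and by 0.27 with spike-in scaling. Neither call held when any 1 animal was left out (adjusted p from 0.054 to 0.11 for both).

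Among 12 tested genes that process or block these cytokines, out of 18 listed, 2 rose and none fell (5.96% and 3.41% of all features). The other 10 did not pass, and the median of the 12 was -0.04. Rhbdf2, the rhomboid-like protein iRhom2 that carries the TNF-shedding protease ADAM17 to the cell surface in mice, had a level of 2.35, 2.26 and 1.55 in BDCM replicates 1, 2 and 3 and 0.897, 0.961 and 0.906 in corn oil replicates 1, 2 and 3. All treated animals were clearly above all corn oil animals (log2 fold change 1.13, SE 0.17, adjusted p = 0.019), and the call ended without any one animal other than BDCM replicate 3 (adjusted p up to 0.077). Casp1, the protease that matures interleukin 1 beta and interleukin 18, rose by 0.36 (SE 0.08, adjusted p = 0.044), a call that ended when any 1 animal was left out (adjusted p from 0.071 to 0.15).

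Genes of NF-κB signalling had 1 of 20 tested members higher and none lower (5.96% and 3.41% of all features). There were 27 genes listed, and the median was 0.06. Irak1, a kinase below the interleukin 1 receptor, rose by 0.40 (SE 0.09, adjusted p = 0.047), and the call ended when any 1 animal was left out (adjusted p from 0.087 to 0.13). The NF-κB target list moved further. Of 15 tested genes out of 20 listed, 6 rose, none fell (5.96% and 3.41% of all features) and 9 did not pass. All 15 had a log2 fold change above 0 and the groups were separated upwards for 12 (50.2% and 18.4% of all features). The median was 0.80. On slide 1 alone 14 of the 15 were above 0, the median was 0.79 and 2 passed, while 3 passed with slide as a block and 2 with the replicate block. Leaving out 1 animal left 1 to 5 calls, with 1 without BDCM replicate 2 and 2 without corn oil replicate 2. The 6 were Ccl2, Cxcl10, Bcl2a1, Cd83, Sod2 and Icam1, of which Sod2 and Icam1 fall outside the rule for named genes and were chosen after their values were seen. The list was chosen with earlier results of these data known.

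Ccl2, the monocyte chemoattractant, had a level of 2.03, 1.67 and 0.742 in BDCM replicates 1, 2 and 3 and 0.204, 0.242 and 0.218 in corn oil replicates 1, 2 and 3. The treated animals were all higher, with replicate 3 lowest as for Tnf (log2 fold change 2.62, SE 0.37, adjusted p = 0.017, and 3.20 for BDCM replicate 1 alone on slide 1). Cxcl10, a chemoattractant of T cells, rose by 1.82 (SE 0.21, adjusted p = 0.011). Bcl2a1, an inhibitor of apoptosis, rose by 1.31 (SE 0.12, adjusted p = 0.0065) and passed in all 6 fits that left out 1 animal. Cd83, a marker of activated antigen-presenting cells, rose by 0.85 (SE 0.11, adjusted p = 0.014). Leaving out BDCM replicate 2 ended the calls of Ccl2, Cxcl10 and Cd83, and leaving out corn oil replicate 2 ended those of Ccl2 and Cd83 (adjusted p up to 0.070 for Ccl2, 0.053 for Cxcl10 and 0.062 for Cd83). Sod2, the mitochondrial superoxide dismutase, and Icam1, a leukocyte adhesion molecule, rose by 0.63 and 0.62.

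**Figure D3:**
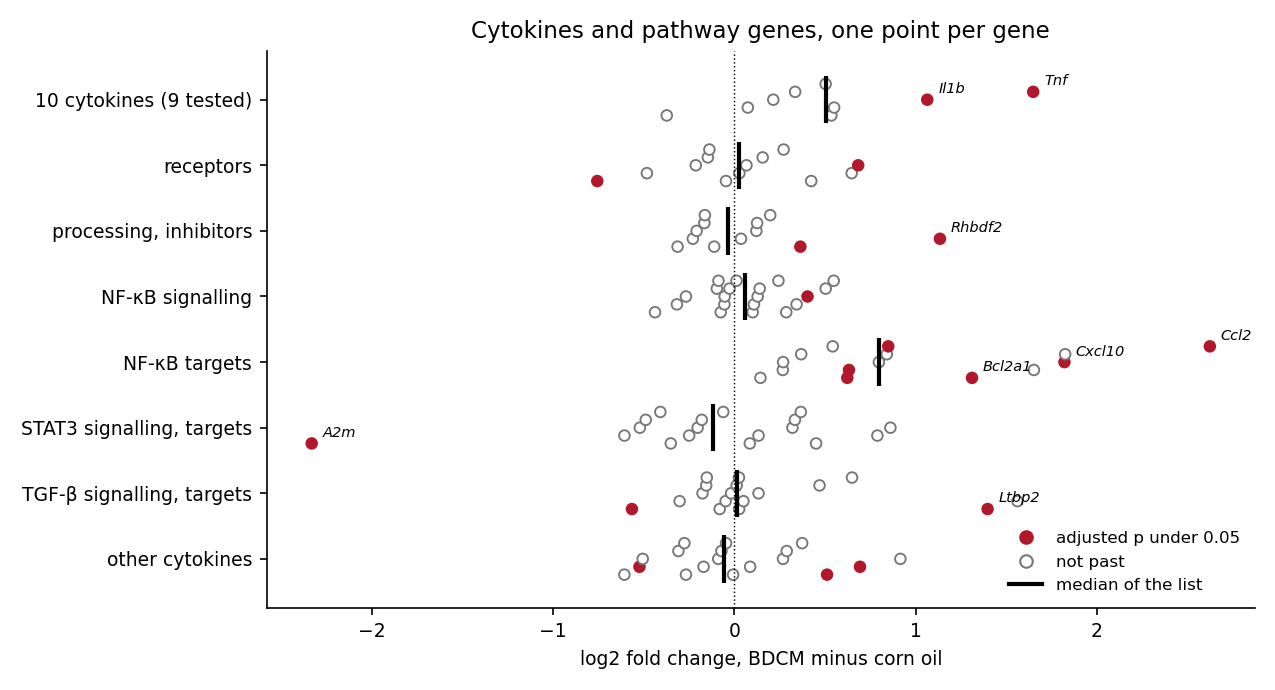
Log2 fold change (BDCM minus corn oil, x axis) of every tested gene of the cytokine list and 7 pathway lists, 1 point per gene (red, adjusted p under 0.05; open, not past; black bar, median of the list). All 15 NF-κB targets lie to the right of 0 with a median of 0.80, while the medians of the other 6 pathway lists lie between -0.12 and 0.06.

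The interleukin 6 and STAT3 list, which holds acute phase genes of hepatocytes, had 18 of its 20 genes tested. Of these 1 was lower and none higher (3.41% and 5.96% of all features). The median was -0.12, or 0.01 with quantile normalization and 0.36 with spike-in scaling. The gene that fell was A2m, in rats an acute phase protease inhibitor, with a level of 0.732, 2.70 and 1.72 in BDCM replicates 1, 2 and 3 and 9.71, 6.65 and 6.73 in corn oil replicates 1, 2 and 3. Its log2 fold change was -2.33 (SE 0.47, adjusted p = 0.036), and -3.37 on slide 1 alone, which rests on BDCM replicate 1, the animal with the lowest A2m. Its call held without BDCM replicate 1 and ended without any one of the other 5 animals (adjusted p up to 0.096). Without BDCM replicate 1 treatment and slide cannot be told apart. The groups were separated downwards for 6 genes of the list and upwards for 3 (16.0% and 18.4% of all features). The 6 were the acute phase genes A2m, Fga, Fgg, Crp, Saa4 and Fgb, and the 3 were Pim1, Jak2 and Socs3. Except for A2m these genes did not pass and were chosen after their values were seen. An unadjusted p under 0.05 was found for 9 of the 18 (27.5% of all features).

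The list of transforming growth factor beta signalling and targets had 1 of 17 tested members higher and 1 lower (5.96% and 3.41% of all features). There were 20 genes listed, and the median was 0.01. Ltbp2, a matrix protein of the latent TGF-β binding family, rose by 1.40 (SE 0.28, adjusted p = 0.035), or by 0.78 with normexp, and its call held without corn oil replicate 1 only (adjusted p up to 0.12 in the other 5 such fits). Ccn2, connective tissue growth factor, fell by 0.57 (SE 0.10, adjusted p = 0.028), or by 0.08 with spike-in scaling, and its call ended when any 1 animal was left out (adjusted p from 0.052 to 0.092). The collagen genes Col1a1, Col1a2 and Col3a1 and the stellate cell gene Acta2, which lie outside the rule for named genes, stood at -0.02, 0.05, -0.16 and -0.08, and none passed.

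Of 37 other cytokines listed, 18 could be tested, and 2 rose and 1 fell (5.96% and 3.41% of all features). The other 15 did not pass, and the median of the 18 was -0.06. Ltb, lymphotoxin beta, rose by 0.69 (SE 0.13, adjusted p = 0.028), and Mif, macrophage migration inhibitory factor, by 0.51 (SE 0.10, adjusted p = 0.035). Il13, a type 2 cytokine, had a level of 0.0523, 0.0676 and 0.0603 in BDCM replicates 1, 2 and 3 and 0.0878, 0.0828 and 0.0870 in corn oil replicates 1, 2 and 3. It fell by 0.52 (SE 0.12, adjusted p = 0.044), or by 0.04 with spike-in scaling. The calls of Ltb and Il13 ended when any 1 animal was left out, and that of Mif held without corn oil replicate 3 only (adjusted p up to 0.091, 0.11 and 0.11).

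Of 11 tested markers of macrophages and monocytes out of 12 listed, 3 rose and none fell (5.96% and 3.41% of all features). The other 8 did not pass, and the median of the 11 was 0.49. The summed level of the list was 63.7 to 74.7 in BDCM animals and 45.1 to 55.8 in corn oil animals. Its largest parts were Lyz2 and Cd68, which did not pass and were chosen after their values were seen. In BDCM animals Lyz2 made up 30.9 to 39.6 and Cd68 15.4 to 17.8. In corn oil animals they made up 23.8 to 30.8 and 12.0 to 15.1. Mmp12, the macrophage elastase, rose by 4.39 (SE 0.37, adjusted p = 0.0048, 2.59 with normexp). It was well above background in 2 of 3 corn oil animals only, and so was kept for the test through the BDCM group alone. Its call, its separation and its fits without 1 animal are therefore no support for a rise. With dim signals raised to 1 common floor the log2 fold change was 4.18. Trem2, a lipid-sensing receptor, rose by 2.03 (SE 0.28, adjusted p = 0.016, 1.21 with normexp) and Gpnmb by 1.73 (SE 0.36, adjusted p = 0.037). Gpnmb, picked above for likeness to Tnf, ranked the treated animals as Tnf did. Mmp12 and Trem2 did not, and were highest in BDCM replicate 2, at levels of 0.921 and 0.506. Mmp12 passed in all 6 fits that left out 1 animal, Trem2 in all but those without BDCM replicate 3 and corn oil replicate 2, and Gpnmb only in that without BDCM replicate 3 (adjusted p up to 0.058 for Trem2 and 0.12 for Gpnmb).

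Of 9 tested markers of resident Kupffer cells out of 10 listed none passed limma's threshold. An unadjusted p under 0.05 was found for 1 of the 9 (27.5% of all features). The log2 fold change was above 0 for 7 of these markers (50.2% of all features), and their median was 0.14. The summed level was 197.6 to 243.1 in BDCM animals and 199.1 to 251.9 in corn oil animals. The smallest p-values of the list were those of the folate receptor Folr2, at 0.38 (SE 0.09, adjusted p = 0.059), and the secreted scavenger protein Cd5l, at 0.36 (adjusted p = 0.20). For these 2 of the 9 markers every BDCM animal was above every corn oil animal, as for 18.4% of all features. No marker was separated downwards (16.0% of all features). Clec4f, a lectin that defines Kupffer cells and was chosen after its values were seen, had a level of 57.3, 79.2 and 88.1 in BDCM replicates 1, 2 and 3 and 86.4, 104.9 and 73.0 in corn oil replicates 1, 2 and 3, with overlap. All 9 tested Kupffer cell markers were well above background on all 6 arrays. The part of any of these cells in the levels of Tnf and Il1b was not tested.

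**Figure D4:**
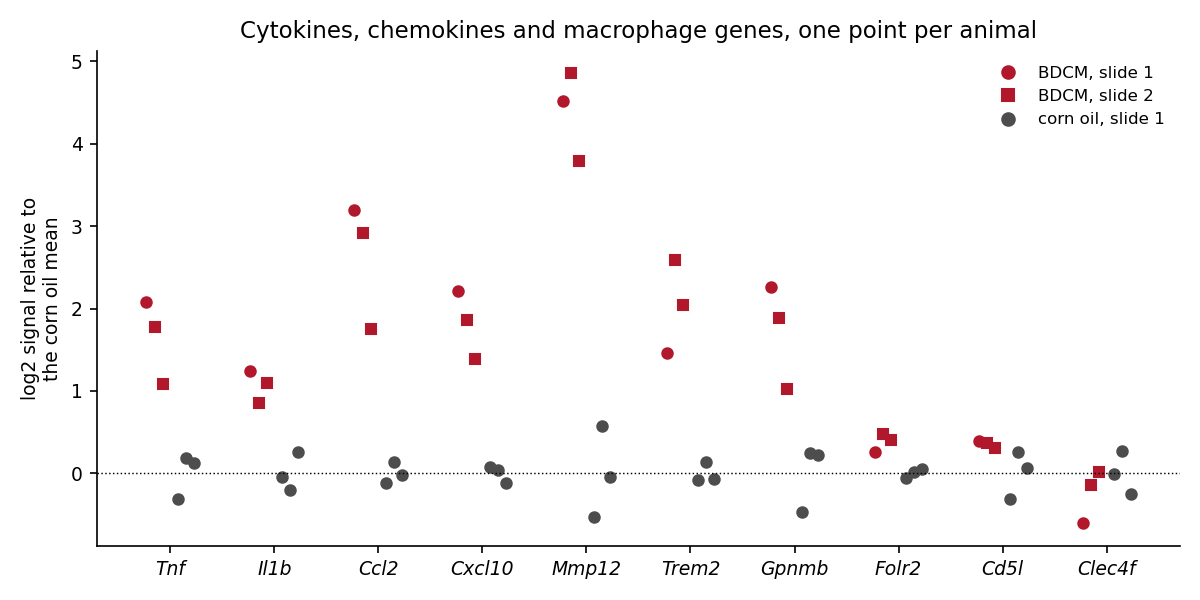
Signal of Tnf, Il1b, 2 chemokines and 6 macrophage genes in each animal, in log2 relative to the mean of the 3 corn oil animals (red, BDCM; grey, corn oil; circles, slide 1; squares, slide 2). The BDCM points of Tnf, Il1b, Ccl2, Cxcl10, Mmp12, Trem2 and Gpnmb and of the Kupffer cell genes Folr2 and Cd5l lie above all corn oil points, while those of Clec4f overlap them. Of all features 18.4% were separated in that direction. Folr2, Cd5l and Clec4f did not pass the threshold.

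Of 9 tested T and NK cell markers out of 10 listed, 2 rose, none fell (5.96% and 3.41% of all features) and 7 did not pass. The median log2 fold change was 0.41 and all 9 values were above 0. The groups were separated upwards for 5 (18.4% of all features), and 5 had an unadjusted p under 0.05 (27.5% of all features). The list had summed levels of 3.80 to 4.37 in BDCM animals and 3.13 to 3.58 in corn oil animals. The 2 that rose, Cd3e and Cd2, were not well above background in any corn oil animal. Both were kept for the test only through the BDCM group, so their calls and their separation are no support for a rise. Their bounds set the mean of the BDCM animals over the higher of the lowest detectable signal and the gene's own signal in each corn oil animal. The bounds put Cd3e 1.33-fold and Cd2 1.47-fold higher and were not tested. The limma adjusted p-values of 0.026 and 0.038 belong to the log2 fold changes without a bound, 1.17 for Cd3e and 1.23 for Cd2. When dim signals were raised to 1 common floor (10.1% of features past the threshold) the log2 fold changes were smaller than these bounds, at 0.23 for Cd3e and 0.36 for Cd2, and both calls ended (adjusted p = 0.30 and 0.29), as they did for Cd2 when any 1 animal was left out and for Cd3e without any one animal other than corn oil replicate 2. Neutrophil markers could be tested for 3 of 8 genes, none of which passed limma's threshold. An unadjusted p under 0.05, as for 27.5% of all features, was found for 2 of them. These were the calcium-binding proteins S100a8 at 0.50 and S100a9 at 0.43 (both adjusted p = 0.17). The 3 tested genes had summed levels of 1.46 to 2.07 in BDCM animals and 1.02 to 1.37 in corn oil animals.

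Mast cells and basophils make Il13 among other products. Of 6 tested markers of these cells out of 8 listed, 3 fell and none rose (3.41% and 5.96% of all features). The other 3 did not pass, and the median of the 6 was -1.16. Their summed level was 2.15 to 2.60 in BDCM animals and 4.74 to 5.09 in corn oil animals, of which Tpsab1 alone made up 1.87 to 2.29 in BDCM animals and 4.26 to 4.34 in corn oil animals. Tpsab1, a mast cell tryptase, fell by 1.03 (SE 0.10, adjusted p = 0.0080) and passed in all 6 fits that left out 1 animal. Cpa3, a mast cell carboxypeptidase, fell by 1.29 (SE 0.18, adjusted p = 0.017), or by 0.67 with normexp, and its call ended without BDCM replicate 2 or 3 (adjusted p up to 0.070). Fcer1a, the IgE receptor chain, was not well above background in any BDCM animal and was kept for the test only through the corn oil group, so its call is no support for a fall. Its bound was 2.17-fold lower and was not tested. The limma adjusted p of 0.024 belongs to the log2 fold change without a bound, -1.37. With the common floor the log2 fold change was smaller, at -0.33, and the call ended (adjusted p = 0.30). With normexp the log2 fold change was -0.41. The call also ended without BDCM replicate 2 or 3 or corn oil replicate 1 or 2 (adjusted p up to 0.089). The part of these cells in the level of Il13 was not tested.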

How the data were processed

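Per the labels' protocols, liver RNA of each rat was labelled with Cy3 and hybridised to a 1-colour array. Per the file headers, Agilent Feature Extraction 10.7.1.1 gave background-subtracted processed intensity values that are not scaled between arrays (10.7 in the submitters' processing notes). The array was designed on an older rat build than GRCr8, which was used for names and promoter sequences only. The deposited value table holds a ratio, which from its values is the processed signal over the array's 75th percentile (within 1% for at least 96.4% of probes). Flags such as well above background are other columns of the deposited scanner files.

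Of 61657 probes 27460 matched 1 symbol and 34197 none, and 27 probes flagged as outliers were left out. Processed signals were taken to log2 minus the array's 75th percentile. Probes well above background on all 3 arrays of a group were kept, and the brightest probe stood for a gene. The comparison used limma 3.58.1 under R 4.3.3 (lmFit, eBayes, two-sided), with Benjamini-Hochberg adjustment over 28995 features. The fit was tested on simulated data. The authors' own test is not given in the sources used here. The planned normexp alternative used the median spot signal, since the files have no mean signal.

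The members and lists were chosen with earlier results of these data known. Genes named were all members, up to 4 members of each list past the threshold with the largest change (where none passed, the 2 of smallest p), and the 3 genes most like each member that passed. Marker lists covered Kupffer cells, macrophages, neutrophils, T and NK cells, B cells, mast cells, endothelial cells, stellate cells, cholangiocytes and hepatocytes. Alternatives changed background correction, scaling, filter, floor, probe choice, variance model, value table, slide, replicate block and animals.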

Additional observations from a re-analysis of the deposited data

How the results depend on the processing

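In all 6 arrays 2715 features, 2 members and 17 genes of the 7 pathway lists passed. These counts were 12996, 7 and 56 with spike-in scaling, 609, 0 and 4 without the filter, 350, 0 and 5 with slide as a fixed block, 120, 0 and 2 on slide 1 alone and 353, 0 and 2 with the replicate block. Leaving out 1 animal gave 335 to 1232 features, 0 to 1 members and 1 to 6 pathway genes. Where none of the members passed limma's threshold, some still had an unadjusted p under 0.05. In the fit of all 6 arrays 27.5% of all features did. That share was not taken in every alternative, so no count of members is read as a result. The other alternatives stayed within 1.5 times. These were normexp, quantile normalization, median centring, the stricter filter, the common floor, the mean over probes, every probe on its own, trend and robust options, the value table and slide as a random block. Median centring moved the share of higher calls over all features to 74.2%, against 63.6%, and spike-in scaling to 97.6%.

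All 34 named genes that passed, those picked for likeness included, kept their direction on slide 1 alone, with spike-in scaling and in every fit without 1 animal. For a gene whose groups do not overlap, the direction on slide 1 alone and without 1 animal is fixed in advance. Those fits are therefore no support for the direction. Nor is spike-in scaling for the genes that rose, since it moved the median of all features upwards. In the 6 fits without 1 animal 4 of the 34, Bcl2a1, Mmp12, Tpsab1 and Pax5, passed each time and 10 passed in none. Mmp12 was kept for the test through the BDCM group alone, so its passing is no support for a rise. On slide 1 alone 2 of the 34 passed and with slide as a block 6, both from 1 treated animal against the corn oil animals, which is no further support for these calls. Directions turned for Il1rn with spike-in scaling (0.11), for Il18 with slide as a block and on slide 1 alone (both -0.11) and without BDCM replicate 2 (-0.16, against up to 0.21 when any other animal was left out), and for the stellate cell markers Hand2 (7.9e-05) and Reln (0.16) with spike-in scaling. The cause was not tested.

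Same-numbered animals had correlations of 0.092, 0.019 and 0.12 between their deviations from the group means, and each animal correlated best with its own number, which is a hint from the data and not from the design. With the replicate block Tnf and Il1b were at adjusted p = 0.073 and 0.054. Faint signals limit Il6, Il10 and the second Tnf probe.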

Other observations

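Other cell type markers gave few calls, and 9.36% of all features passed. Epcam, an epithelial adhesion molecule of bile duct and progenitor cells, rose by 1.12 (SE 0.18, adjusted p = 0.021) as the 1 of 6 tested cholangiocyte markers that passed. Its level was 1.94, 2.48 and 2.38 in BDCM replicates 1, 2 and 3 and 1.20, 1.14 and 0.817 in corn oil replicates 1, 2 and 3, and its call ended without BDCM replicate 2 or 3 or corn oil replicate 2 (adjusted p up to 0.083). Pax5, a B cell transcription factor, fell by 0.83 (SE 0.09, adjusted p = 0.0084) and was separated between groups, while the B cell receptor gene Cd79b, chosen after its values were seen, stood at 0.18 (adjusted p = 0.69) and 1 of 3 tested B cell markers passed.

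Of 5 tested endothelial markers 1 fell, Lyve1 of sinusoidal cells by 0.56 (SE 0.11, adjusted p = 0.030), and of 8 hepatocyte markers 1 fell, Serpina1 by 0.50 (SE 0.08, adjusted p = 0.023). Over all features 3.41% fell. The log2 fold change was above 0 for none of the 5 and for 2 of the 8 (50.2% of all features), with medians of -0.15 and -0.22. The groups were separated downwards for 3 of the 5 and 4 of the 8, and upwards for none (16.0% and 18.4% of all features). With spike-in scaling Lyve1 was at -0.07 and Serpina1 at -0.02, and both calls ended when any 1 animal was left out. None of 7 tested stellate cell markers passed limma's threshold, and 2 had an unadjusted p under 0.05 (27.5% of all features). Hand2, a transcription factor, and Reln, reelin, had the smallest p-values, at -0.48 (SE 0.16, adjusted p = 0.12) and -0.33 (adjusted p = 0.17).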
